A study of Mus musculus with 4 samples.

Results

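Autophagy genes encode the proteins that build a double-membraned vesicle, the autophagosome, around cytoplasm and organelles and deliver it to the lysosome. The members were the rows of 33 listed autophagy genes, matched by symbol, with the row of longest exon length kept for each gene. The tables held 31 of them under the listed symbol, out of 21506 genes in all. The other two were held under older symbols, Atg13 as D2Ertd391e and Vmp1 as Tmem49. Both were identified through their RefSeq accessions and are described apart from the 31.

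The cells were 32Dclone3, a mouse myeloid line grown in serum with interleukin-3 (WEHI media). The control group carried the virus XZ and the other group the virus XZ-miR-125b, both by stable infection, and each group had 2 libraries. Different virus supernatants served the infections within a condition, so p-values measure only the spread between such infections of 1 cell line. The comparison asked how gene expression differed between vector and miR-125b cells, and poly(A)-enriched RNA was sequenced. Such data give messenger RNA levels, not protein or autophagic flux.

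The libraries held between 10.4 and 12.6 M reads summed over all rows. RPKM is a level per exon length and per library size. The hairpin row of Mir125b-1 had no read in either control and 4 reads in both miR-125b libraries. Of 15 myeloid progenitor markers 13 reached 1 RPKM in at least 2 libraries, and their summed level ran from 1207 to 2096 RPKM in control and from 1341 to 1773 RPKM with miR-125b. None of 7 lymphoid markers found did so, and Ms4a1 held 0 reads. Among stromal markers 2 of 7 did, at a summed level of at most 9.94 RPKM, with Col1a2, Col3a1 and Dcn at 0 reads. Of 8 erythroid and megakaryocyte markers 5 did, with Hbb-b1 at 0 reads, at a summed level of 157 and 231 RPKM for control against 107 and 221 RPKM for miR-125b. Of 8 mast cell and basophil markers 5 did, with Fcer1a and Tpsb2 at 0 reads. Their summed level was 246 and 145 RPKM for control against 80.1 and 51.0 RPKM for miR-125b, and its part in the values below was not tested. In bulk RNA, fewer cells of a type and less RNA per cell cannot be told apart. The control libraries had a correlation of 0.957 over all tested genes, against 0.979 between the miR-125b libraries. Control replicate 1 had a correlation of 0.977 to miR-125b replicate 1 and of 0.962 to miR-125b replicate 2.

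In this pathway the ULK1 kinase complex, which the mTORC1 and AMPK kinases regulate, starts vesicle formation. A class III phosphoinositide 3-kinase built around Becn1 and Pik3c3 then marks the growing membrane, ATG9 and ATG2 bring lipid, and WIPI proteins read the mark. A pair of ubiquitin-like systems follow, in which ATG12 is joined to ATG5 and proteins of the LC3 and GABARAP families are joined to lipid. Receptors such as p62 (Sqstm1) bind cargo to the LC3 and GABARAP proteins. In blood cells the pathway is known for removing mitochondria and for sparing cells deprived of growth factor.

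The miRNA that was overexpressed pairs with messenger RNAs mainly through its seed, bases 2 to 8, shown in capitals in the mature sequence from RefSeq.
mmu-miR-125b-5p: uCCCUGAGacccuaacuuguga
The seed match CTCAGGG in a 3′ UTR is called a 7mer-m8 site and, with a following A, an 8mer. For every gene, the longest 3′ UTR that GENCODE M21 annotates was searched on the transcript strand. An 8mer or 7mer-m8 site was carried by 6 of the 30 tested members and by 15.6% of all tested genes with a 3′ UTR. They are shown because the miRNA could pair with them through its whole seed, and a match is a description, not evidence of binding. Each line gives a site in capitals with its flanks and with GRCm38 coordinates.
Atg16l2 8mer (chr7:101287237-101287266, minus strand): atcttatgaatCTCAGGGAagtcataatgt
Atg4d 7mer-m8 (chr9:21273628-21273656, plus strand): cagggcactcaCTCAGGGcctaattcaag
Uvrag first 7mer-m8 (chr7:98887711-98887739, minus strand): aactgaggggaCTCAGGGtcattgggtac
Uvrag second 7mer-m8 (chr7:98886816-98886844, minus strand): acagacattgcCTCAGGGttgcaagctct
Atg4b first 7mer-m8 (chr1:93789335-93789363, plus strand): ctgagggaactCTCAGGGcttgagaaagg
Atg4b second 7mer-m8 (chr1:93790150-93790178, plus strand): acaaagcttgcCTCAGGGtccctccaggc
Wipi2 7mer-m8 (chr5:142669528-142669556, plus strand): taggggcaggtCTCAGGGgtctgaggttg
Map1lc3b 7mer-m8 (chr8:121591474-121591502, plus strand): gggcggtgaagCTCAGGGtccgcctagtg
Not every site lies in the transcript that was counted. The row of Atg16l2 has 2164 exon bases, which leaves at most 292 beyond its coding sequence, while the 8mer lies at position 2593 of the 3′ UTR. The second Atg4b site, at position 2403, also lies beyond the 1782 noncoding bases of its row, and the Wipi2 site at 2568 would fit only if nearly all of the row's 2573 noncoding bases were 3′ UTR. Among the other tested members, Atg4a carried a 7mer-A1 match (TCAGGGA), 8 members carried a 6mer (TCAGGG) as their best match and 15 carried none.

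No autophagy gene passed the test between control and miR-125b cells, and most differences were small. In limma's test over 10310 genes with at least 1 RPKM in at least 2 libraries, 0 members had an adjusted p under 0.05, as did 0.0% of all tested genes. At an unadjusted p under 0.05 there was 1 member of 30, Atg12, against 9.38% of all tested genes. It was lower with miR-125b, as were 5.21% of all tested genes at that p, and 0 members were higher, against 4.17%. Log2 fold changes, differences of log2(RPKM + 1) with miR-125b minus control, had a median of -0.046 over the members and 0.024 over all tested genes, and 17 members were below 0 (47.2% of all tested genes) and 13 above (52.8%). The groups did not overlap in 11 members, which is 36.7% of them against 42.8% of all tested genes. Of these, 7 had lower values in miR-125b cells (20.4% of all tested genes) and 4 had higher values (22.3%). A log2 fold change beyond 0.4 in size was seen in 3 members, or 10.0%, against 20.4% of all tested genes. The 95% interval of the fold change in RPKM + 1 lay wholly within a 2-fold change either way in 27 of the 30 members. The same count over all tested genes was not made. Adding 1 shrinks the fold changes of genes with low RPKM, so a 2-fold change in their RPKM itself is not excluded. Standard errors ran from 0.17 to 0.33. With 2 libraries a group even Atg12, at -0.53, did not pass the adjusted test. Sorted by best miR-125b match, tested genes having a 3′ UTR had median log2 fold changes of -0.12 (8mer), -0.052 (7mer-m8) and 0.050 (none). The medians of the members were -0.38 (1 gene), 0.072 (5 genes) and -0.050 (15 genes), in the same order. Whether these medians differ was not tested.

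Levels spanned a wide range. Over the 4 libraries the tested members averaged between 1.27 RPKM (Gabarapl2) and 97.9 RPKM (Gabarap), with a median of 12.7 RPKM against 12.9 RPKM for all tested genes. Gabarap, Becn1 at 90.8 RPKM, Sqstm1 at 88.7 RPKM and Gabarapl1 at 68.8 RPKM were the highest, all above the 92nd percentile of tested genes. Nbr1 at 37.4 RPKM and Atg12 at 31.9 RPKM came next. Atg4c, at 1.84 RPKM, and Atg4a, at 2.51 RPKM, stood near the low end. Against this span between genes, 19 of 30 tested members varied by less than 1.5-fold over all 4 libraries, against 52.6% of all tested genes.

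**Figure D1:**
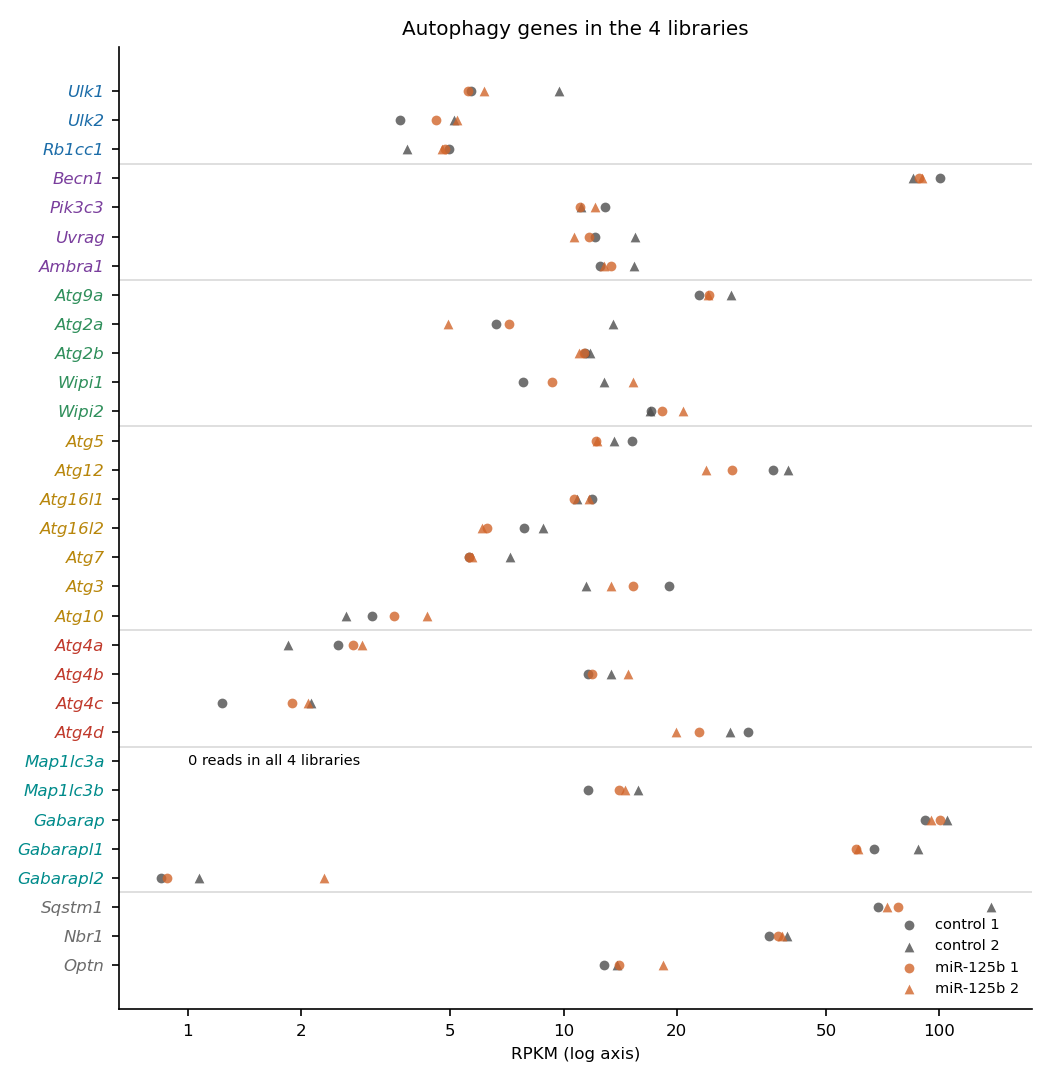
RPKM (log axis) of the 31 autophagy genes in each library, with control libraries in grey, miR-125b libraries in orange, replicate 1 as circles and replicate 2 as triangles. Gene names are coloured by role and lines divide the roles. Most genes hold 4 close points. Sqstm1, Atg2a and Ulk1 are set apart by a high point in control 2, and Map1lc3a held 0 reads.

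The initiating kinases were expressed at low levels that did not separate the groups. Ulk1 (chromosome 5, 111213508 to 111239100 in mm9, 28 exons), the kinase that starts autophagy, had 5.67 and 9.70 RPKM for control against 5.58 and 6.15 RPKM for miR-125b. Control replicate 2 was the high library and the other 3 lay close together. The log2 fold change was -0.30 (SE 0.26, adjusted p = 0.711 in limma's test), and it was 0.040 without control replicate 2 and -0.64 without control replicate 1. Its relative Ulk2 had 3.68 and 5.11 RPKM for control against 4.58 and 5.20 RPKM for miR-125b, a difference of 0.14 (SE 0.21). Rb1cc1, the scaffold FIP200 of the complex, stood at 4.97 and 3.84 RPKM and at 4.82 and 4.74 RPKM, in the same order. Atg13, the regulatory subunit listed as D2Ertd391e, had 13.0 and 16.6 RPKM for control against 12.1 and 9.96 RPKM for miR-125b. Its groups did not overlap, with a log2 fold change of -0.39 (SE 0.21, adjusted p = 0.582 in limma's test) that was -0.22 without control replicate 2.

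The 4 genes of the class III phosphoinositide 3-kinase complex had log2 fold changes between -0.28 and -0.045, and in 3 of them the groups overlapped. Groups without overlap were thus seen in 1 of the 4, against 42.8% of all tested genes. Becn1, the beclin 1 subunit (chromosome 11, 101149581 to 101163581 in mm9), had 100.1 and 85.0 RPKM for control against 88.5 and 89.7 RPKM for miR-125b. Both miR-125b values lay between the control values, and the 95% interval of the log2 fold change ran from -0.52 to 0.42. Of the 32-base windows of its annotated transcript, 48.2% also occurred in other genes, among them Cntd1. That transcript has 4365 bases and the counted row 2031, and whether the shared windows lie in the counted bases was not tested. Whether reads of other genes enter its level is therefore not known. Pik3c3, the catalytic subunit VPS34, had 12.9 and 11.1 RPKM for control against 11.1 and 12.1 RPKM for miR-125b. Ambra1, a scaffold that links Becn1 to its regulators, stood at 12.5 and 15.4 RPKM and at 13.4 and 12.8 RPKM, in the same order. It had 2 rows, of 5290 and 5017 exon bases, and their log2 fold changes were -0.077 and -0.075. Uvrag, a Becn1 partner with a pair of 7mer-m8 sites, was the exception in overlap. It had 12.1 and 15.5 RPKM for control against 11.7 and 10.6 RPKM for miR-125b, and its log2 fold change was -0.28 (SE 0.20, adjusted p = 0.664 in limma's test). The difference was -0.11 without control replicate 2.

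Among lipid-supply and membrane-mark genes, Atg2a differed most in size. Atg2a, which encodes a lipid transfer protein (chromosome 19, 6241668 to 6262304 in mm9), had 6.60 and 13.6 RPKM for control against 7.17 and 4.93 RPKM for miR-125b. Its groups overlapped, because control replicate 1 lay below miR-125b replicate 1. The log2 fold change of -0.60 had the largest standard error of the members (0.33, adjusted p = 0.605 in limma's test) and was -0.13 without control replicate 2. Its relative Atg2b had 11.4 and 11.8 RPKM for control against 11.3 and 10.98 RPKM for miR-125b. The difference of -0.047 had the smallest standard error, 0.17, and its groups, though not overlapping, lay within 1 RPKM of each other.

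The scramblase gene Atg9a had 23.0 and 27.9 RPKM for control against 24.4 and 24.2 RPKM for miR-125b. Its level is uncertain, since 48.1% of its windows also occurred in the annotated gene Gm29253. Wipi2, a reader of the phosphoinositide mark, had 17.1 and 17.0 RPKM for control against 18.2 and 20.8 RPKM for miR-125b. Wipi2 was higher in both miR-125b libraries, by 0.18 (SE 0.18) on the log2 scale and by 0.095 without miR-125b replicate 2. Whether its 7mer-m8 site acts was not tested. Wipi1 stood at 7.79 and 12.8 RPKM and at 9.33 and 15.3 RPKM, in the same order, so that the replicates of each group differed more than the groups. Vmp1, a membrane protein gene listed as Tmem49, had 35.5 and 25.9 RPKM for control against 28.9 and 22.5 RPKM for miR-125b.

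The conjugation system held the only member at an unadjusted p under 0.05. Atg12 encodes the ubiquitin-like protein that is joined to ATG5 (chromosome 18, 46892071 to 46901233 in mm9, 4 exons). It had 36.2 and 39.6 RPKM for control against 28.0 and 23.9 RPKM for miR-125b, from 699 to 1023 reads a library. Both miR-125b values lay below both control values, a difference of -31.5% in the mean. The log2 fold change was -0.53 with a 95% interval from -0.98 to -0.080, an unadjusted p of 0.0275 and an adjusted p of 0.499 in limma's test. With libraries left out in turn it ran from -0.64 to -0.42, and its adjusted p was at least 0.108 in each of 16 alternative analyses. Its best miR-125b match was a 6mer.

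Atg5, the partner of ATG12, had 15.2 and 13.6 RPKM for control against 12.2 and 12.3 RPKM for miR-125b, a log2 fold change of -0.21 (SE 0.17) that was -0.14 without control replicate 1. Atg16l1, which places the conjugate on the membrane, stood at 11.9 and 10.8 RPKM and at 10.6 and 11.7 RPKM, in the same order. Its paralogue Atg16l2 had 7.86 and 8.82 RPKM for control against 6.26 and 6.06 RPKM for miR-125b. The 2 groups of Atg16l2 did not overlap, with a log2 fold change of -0.38 (SE 0.18, adjusted p = 0.548 in limma's test).

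The enzymes of both conjugation systems showed no common direction. Atg7, the activating enzyme, had 5.59 and 7.21 RPKM for control against 5.59 and 5.71 RPKM for miR-125b. Atg3, the conjugating enzyme of the LC3 branch, stood at 19.0 and 11.5 RPKM in control, a wider gap than to its miR-125b values of 15.3 and 13.3 RPKM. Atg10, the conjugating enzyme of the ATG12 branch, had 3.10 and 2.64 RPKM for control against 3.55 and 4.34 RPKM for miR-125b. It was higher in both miR-125b libraries, by 0.35 (SE 0.20, adjusted p = 0.609 in limma's test), from 44 to 82 reads a library. In all, 6 of the 7 conjugation genes (85.7%), enzymes and others together, had a log2 fold change below 0, against 47.2% of all tested genes. Their median was -0.15, against 0.024 over all tested genes.

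The ATG4 proteases trim LC3 and GABARAP proteins before conjugation and release them again. Atg4d had 30.9 and 27.7 RPKM for control against 23.0 and 19.9 RPKM for miR-125b. Both miR-125b values were lower, with a log2 fold change of -0.43 (SE 0.19, adjusted p = 0.534 in limma's test). It carries the 7mer-m8 site shown above near the start of its 3′ UTR, at position 204. Its unadjusted p of 0.055 passed 0.05 in 4 of 16 alternative analyses. Of 32-base windows of its annotated transcript, 20.3% also occurred in transcripts of Kri1. That transcript has 5951 bases and the counted row 2541. Whether the shared windows lie in the counted bases was not tested, so whether reads of Kri1 enter its level is not known.

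Atg4b, the main protease in most cells, had 11.6 and 13.4 RPKM for control against 11.9 and 14.8 RPKM for miR-125b, and its groups overlapped. It carries 7mer-m8 sites, the second of them beyond its counted row, and whether they act was not tested. Atg4a had 2.52 and 1.85 RPKM for control against 2.75 and 2.92 RPKM for miR-125b, higher in both libraries by 0.28 (SE 0.21), and by 0.12 without control replicate 2. It is uncertain, since 74.3% of its windows also occurred in other annotated transcripts, among them the pseudogene Atg4a-ps. Atg4c had 1.23 and 2.13 RPKM for control against 1.90 and 2.09 RPKM for miR-125b. Its second row, of 2792 exon bases, gave a log2 fold change of 0.20 against 0.18 for the longest row.

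Among the genes of the LC3 and GABARAP families, Gabarap and Gabarapl1 had the highest RPKM, and Gabarapl2 was the lowest tested gene. Gabarap (chromosome 11, 69804872 to 69808451 in mm9) had 91.4 and 104.6 RPKM for control against 100.5 and 95.2 RPKM for miR-125b. The miR-125b values lay between the control values, and the log2 fold change of 0.00041 had a 95% interval from -0.46 to 0.46. Gabarapl1 had 67.0 and 87.9 RPKM for control against 59.9 and 60.6 RPKM for miR-125b. Its groups did not overlap, with a log2 fold change of -0.34 (SE 0.21, adjusted p = 0.622 in limma's test) that was -0.15 without control replicate 2.

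Map1lc3b, the LC3 gene most used as a marker of autophagosomes, had 11.6 and 15.8 RPKM for control against 14.0 and 14.5 RPKM for miR-125b. It carries a 7mer-m8 site and its log2 fold change was 0.072 (SE 0.20). Map1lc3a held 0 reads in every library, which allows a level of up to 0.246 to 0.2996 RPKM in counting error alone. Gabarapl2 held 6, 7, 7 and 17 reads, with the last in miR-125b replicate 2, and levels of 0.848, 1.07, 0.880 and 2.30 RPKM. Its windows also occurred in other annotated genes in 20.8% of positions, those of Map1lc3b in 17.2%, and the sources used here do not give how reads with several matches were treated. Both levels may therefore be uncertain, as are those of Gabarapl1, with 19.5% of its windows shared, and Rb1cc1, with 20.6%. The annotated transcripts of Gabarapl2 and Map1lc3b have 1677 and 2532 bases, against 630 and 1712 in their counted rows. Whether their shared windows lie in the counted bases was not tested.

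Of the cargo receptors, Sqstm1 varied most, and by 1 control library. Sqstm1, the p62 receptor (chromosome 11, 50013654 to 50024292 in mm9), had 68.5 and 136.7 RPKM for control against 77.4 and 72.3 RPKM for miR-125b. Control replicate 2 was 1.99 times control replicate 1, and both miR-125b values lay just above control replicate 1. The log2 fold change was -0.37 (SE 0.33, adjusted p = 0.718 in limma's test) and turned to 0.12 without control replicate 2. Nbr1, a related receptor, had 35.2 and 39.2 RPKM for control against 37.1 and 38.2 RPKM for miR-125b. Optn, the optineurin receptor of damaged mitochondria and bacteria, stood at 12.8 and 13.9 RPKM and at 14.0 and 18.4 RPKM, in the same order. It was higher in both miR-125b libraries, by 0.25 (SE 0.20), and by 0.067 without miR-125b replicate 2.

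**Figure D2:**
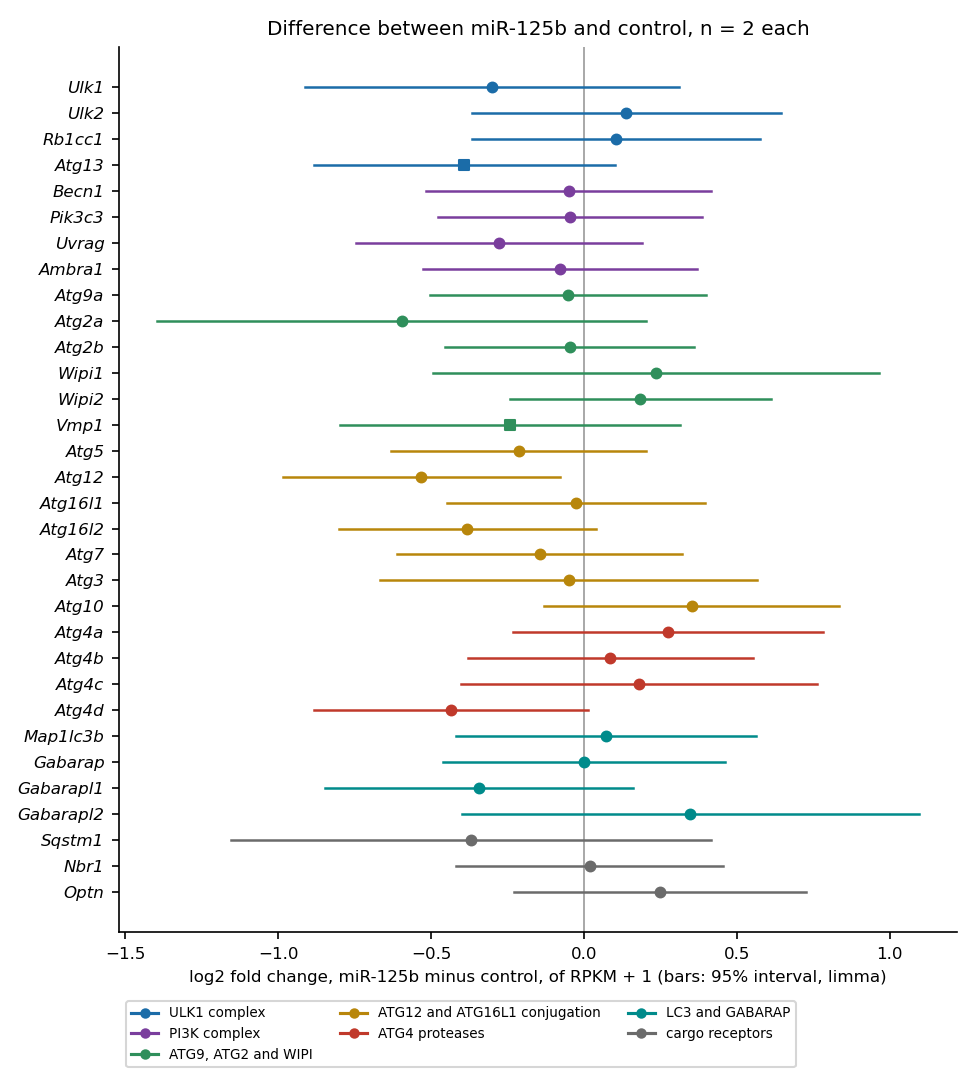
Log2 fold change of RPKM + 1, miR-125b minus control, for the 30 tested genes and for Atg13 and Vmp1 (squares), coloured by role, with 95% intervals from limma and n = 2 libraries a group. Among the 30, the interval of Atg12, from -0.98 to -0.080, is the only one that leaves out 0, and intervals holding 0 do not show that levels were equal.

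The difference between the control libraries was larger than the difference between conditions in 21 of 30 tested members and in 62.4% of all tested genes. The former sets single libraries against each other and the latter means of 2 libraries, so the former spreads more by design. Control replicate 2 held the highest of the 4 values in 15 members, against 31.9% of all tested genes, and miR-125b replicate 1 in 0, against 18.2%. Control replicate 2 held the lowest value in 6 members, against 37.0% of all tested genes. The median difference of control replicate 2 from control replicate 1 was 0.16 on the log2 scale over the members and -0.016 over all tested genes. Across the 30 members this difference followed the GC content of the transcript, with Spearman's rho of 0.616, against 0.475 across all tested genes. These points come from the same pair of libraries and are not independent. The members with the largest excess in control replicate 2 were Atg2a, Sqstm1, Atg4c, Ulk1 and Wipi1, at 2.06, 1.99, 1.72, 1.71 and 1.64 times control replicate 1, and Atg3 was the farthest the other way at 0.604 times. The part of GC content in these values was not tested beyond a correction of each library for it. After that correction the members' median log2 fold change was -0.025, and 2 members, Atg12 and Atg16l2, had an unadjusted p under 0.05, against 11.2% of all genes. With the replicate number as a block in the same correction it was Atg12 alone.

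**Figure D3:**
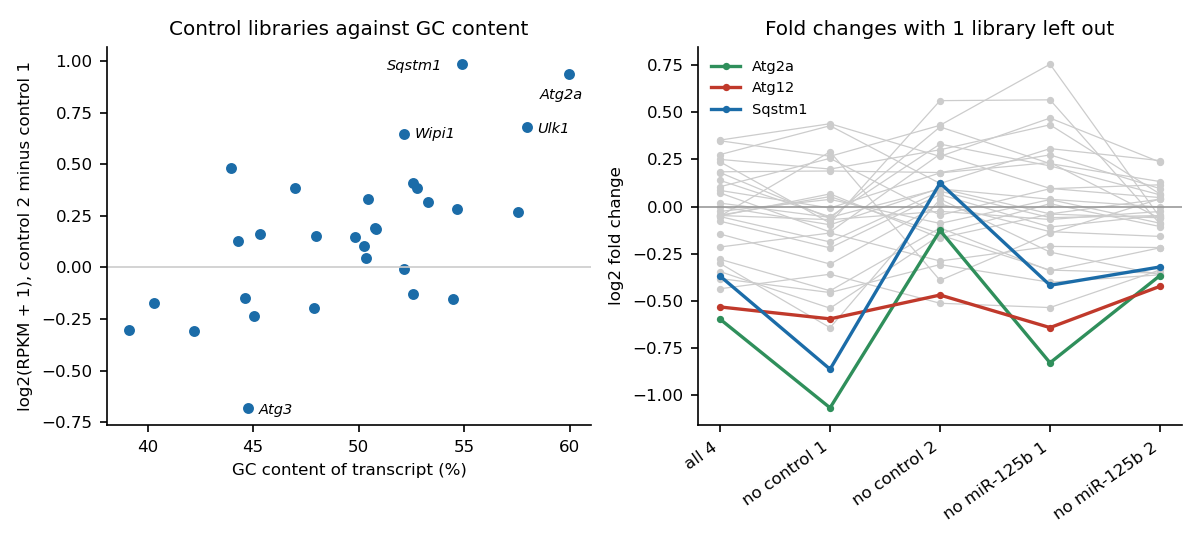
Left, difference in log2(RPKM + 1) between control replicates 2 and 1 against transcript GC content (%) for the 30 tested genes. Right, log2 fold change of each gene with all libraries and with each library left out. Without control replicate 2, Atg2a moves to -0.13 and Sqstm1 to 0.12, while Atg12 stays between -0.64 and -0.42.

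Without control replicate 1, 7 members had an unadjusted p under 0.05, all lower with miR-125b, when 29.2% of all genes did. These were Atg12, Atg16l2, Atg2a, Gabarapl1, Sqstm1, Ulk1 and Uvrag. Without control replicate 2 they were Atg12 and Atg4d, against 11.4% of all genes, and the members' median turned to 0.052. Without miR-125b replicate 1 it was Atg2a alone, against 6.49% of all genes, and without miR-125b replicate 2 it was 0 members, against 3.22%.

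Genes that act before, beside and after the core machinery were taken from 5 further lists, which held 82 tested genes. At an unadjusted p under 0.05 there were 5, or 6.10% against 9.38% of all tested genes, and 0 passed over all genes. Of these, 4 were higher (4.17% of all tested genes) and 1 was lower (5.21%). Nutrient and energy sensing genes upstream of ULK1 had a median log2 fold change of 0.072 over 23 genes, and 0.11 without control replicate 2. Of these, Tbc1d7, a subunit of the TSC complex that restrains mTORC1, had 7.87 and 7.38 RPKM for control against 11.3 and 10.95 RPKM for miR-125b (adjusted p = 0.488 in limma's test). Prkag1, a regulatory subunit of AMPK, had 28.9 and 29.5 RPKM for control against 23.3 and 23.4 RPKM for miR-125b. Further genes of autophagosome formation had a median of -0.11 over 17 genes, which was 0.013 without control replicate 2, and 0 at an unadjusted p under 0.05. The smallest p there belonged to Sh3glb1, a membrane-bending partner of Uvrag, at 30.8 and 25.2 RPKM for control against 34.6 and 35.02 RPKM for miR-125b, and to Ei24, at 63.9 and 48.6 RPKM and 45.5 and 43.7 RPKM.

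Genes of fusion with lysosomes had the highest median of these lists, 0.21 over 15 genes against 0.024 over all tested genes. The list was chosen with earlier results of these data known, so its shares are a description. No test was run over the list. The groups did not overlap in 12 of the 15, against 42.8% of all tested genes, with higher values in 9 (22.3% of all tested genes) and lower values in 3 (20.4%). The median was 0.12 without control replicate 1. Lamp1, a main glycoprotein of the lysosomal membrane, had 175.5 and 212.7 RPKM for control against 334.7 and 295.2 RPKM for miR-125b (log2 fold change 0.70, SE 0.21, adjusted p = 0.464 in limma's test). Tgm2, a protein-crosslinking enzyme, had 114.1 and 203.6 RPKM for control against 368.6 and 262.4 RPKM for miR-125b (log2 fold change 1.02, SE 0.33, adjusted p = 0.466 in limma's test). Without control replicate 1 the log2 fold change of Tgm2 was 0.61. Both miR-125b values exceeded both control values in Lamp1 and in Tgm2. The 3 genes of the list with lower values and no overlap were Vamp8, Ykt6 and Vps33a, with log2 fold changes of -0.37, -0.21 and -0.38. Plekhm1, at -0.079, was also below 0, with overlapping groups.

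Selective receptors and regulators outside the 33 had a median of 0.025 over 20 genes, and 0.21 without control replicate 2. Trp53inp1, a p53-inducible protein that binds LC3, had 9.84 and 14.6 RPKM for control against 4.25 and 5.52 RPKM for miR-125b (adjusted p = 0.363 in limma's test). Bnip3, a mitochondrial receptor, had 5.27 and 7.52 RPKM for control against 11.2 and 9.27 RPKM for miR-125b (adjusted p = 0.4999 in limma's test). Transcription factors of autophagy genes had a median of 0.018 over 7 genes, which was -0.046 without control replicate 1 and 0.083 without control replicate 2, with 0 at an unadjusted p under 0.05. Tfeb, a master regulator of lysosomal genes listed as Tcfeb, had 3.44 and 6.28 RPKM for control against 3.77 and 2.78 RPKM for miR-125b, and Mitf, its relative, stood at 1.91 and 2.07 RPKM and at 2.01 and 1.27 RPKM. CACGTG, the core motif that TFEB and related factors bind, occurred on either strand of the promoters (250 bases before to 50 after a start, RefSeq, GRCm38) of 3 of 25 matched members, Atg3, Atg5 and Atg7. That share of 12.0% was close to the 12.2% of tested genes.

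**Figure D4:**
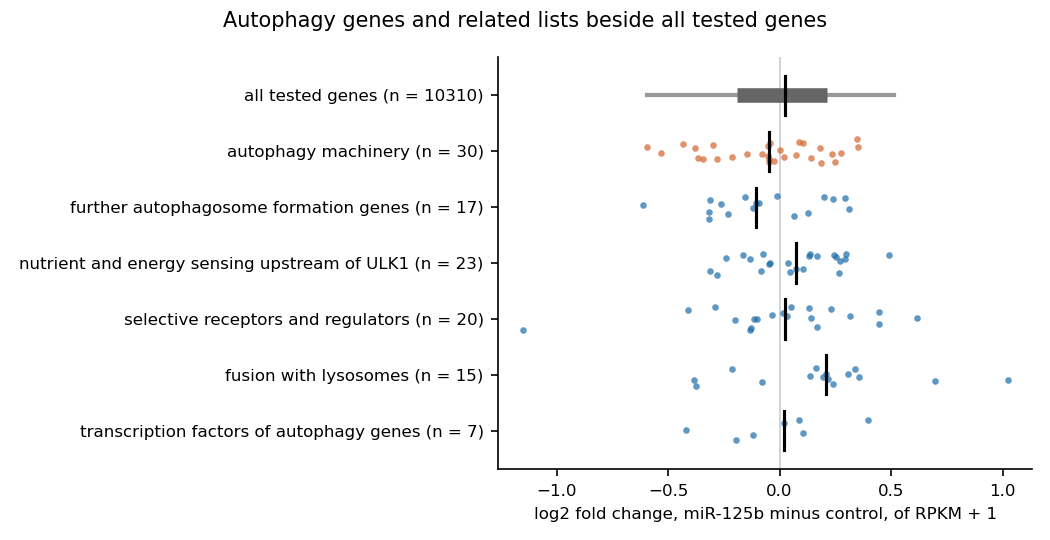
Log2 fold changes of RPKM + 1, miR-125b minus control, for the autophagy genes (orange), the 5 related lists (blue) and all tested genes (grey, thick bar the middle 50% and thin bar the middle 90%), with medians as black lines. The autophagy median of -0.046 lies close to the 0.024 of all genes, and that of the fusion list, 0.21, lies higher.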

How the data were processed

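The members, lists and tests were chosen with earlier results of these data known. The authors deposited 1 table per library with 26982 RefSeq transcript rows and RPKM values, on the mm9 build (per the notes on processing that the submitters gave). Which aligner, counting program and strand setting were used is not given in these sources. Multiplied by exon length, the deposited RPKM were whole multiples of 1 step in 100.0% of rows (tolerance 0.001 reads), so reads could be recovered. The tables order their rows differently and were joined on the annotation. limma 3.58.1 (R 4.3.3) was fitted with trend to log2(RPKM + 1), 2-sided, for genes at 1 RPKM or more in at least 2 libraries, with Benjamini-Hochberg adjustment at 0.05. The same fit was run on simulated reads without shifts between libraries linked to GC content, so that run does not cover such shifts. Residual degrees of freedom were 2 and prior ones 4.63. An exact permutation test of 2 against 2 cannot go below p = 0.333 and was not used. Every member is named. Values are given for all, and for related lists for genes at an unadjusted p under 0.05, or the 2 with the smallest p. For the fusion list, the genes with lower values and no overlap are named as well. The 3′ UTRs, windows of 32 bases and GC content came from GENCODE M21, which joined 99.0% of genes. Alternatives changed the pseudocount, filter, scaling, row, model, libraries, block and GC correction.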

Additional observations from a re-analysis of the deposited data

How the results depend on the processing

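The members' median log2 fold change ran from -0.078 without control replicate 1 to 0.052 without control replicate 2 over 16 alternatives, and 0 members were called in any. The count of members at an unadjusted p under 0.05, 1 with all libraries, was 2 without a filter on low values, with median centring, with limma-voom and with GC correction without the block. It was between 0 and 7 with libraries left out. Over all genes the counts were 0 called and 967 at an unadjusted p under 0.05, and with libraries left out they ran from 0 to 91 and from 332 to 3007. The cause of these shifts was not tested. Same-numbered libraries deviated together at r = 0.021 across genes, so numbers were not treated as pairs. With the replicate block 12 genes were called, and 2 with GC correction and block, none of them members.

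With libraries left out, medians of related lists ran from -0.12 to 0.013 for further formation genes, from 0.071 to 0.11 for nutrient sensing, from -0.057 to 0.21 for selective receptors, from -0.046 to 0.083 for transcription factors and from 0.12 to 0.25 for fusion. The sign of 12 of 30 members held in every alternative. The other members, none called, turned sign in at least 1. With libraries left out, log2 fold changes ran from -0.64 to 0.040 for Ulk1, -0.054 to 0.33 for Ulk2, -0.045 to 0.26 for Rb1cc1, -0.17 to 0.067 for Becn1, -0.14 to 0.053 for Pik3c3, -0.22 to 0.064 for Ambra1. They ran from -0.19 to 0.082 for Atg9a, -0.092 to 0.57 for Wipi1, -0.089 to 0.038 for Atg16l1, -0.30 to 0.014 for Atg7, -0.39 to 0.29 for Atg3, -0.063 to 0.23 for Atg4b. For the rest the range was -0.062 to 0.42 for Atg4c, -0.13 to 0.28 for Map1lc3b, -0.096 to 0.097 for Gabarap, -0.057 to 0.75 for Gabarapl2, -0.86 to 0.12 for Sqstm1, -0.057 to 0.094 for Nbr1. For Mitf, which is of the transcription factor list and not a member, it was -0.40 to 0.0093. With GC correction, with and without the replicate block, log2 fold changes were -0.028 for Rb1cc1, 0.046 for Atg9a, -0.022 for Nbr1. Gabarap was at -0.0081 with median centring and -0.0079 with limma-voom. Depth limits Gabarapl2, Map1lc3a, Atg4a, Atg4c and Atg10 most.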
